A study of Caenorhabditis elegans with 6 samples.

Results

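The 10 genes described here belong to the signalling pathways that induce the vulva, the egg-laying opening, of the nematode Caenorhabditis elegans: lin-3, let-23, sem-5, let-60, lin-45, mek-2, mpk-1, lin-1, lin-31 and lin-12. They were chosen by name, with earlier results of these data known, as the rows of the expression table whose RefSeq locus tag carries these symbols. All 10 had a row among the 20894 rows in all. RNA was sequenced from whole worms labelled as adults, grown on Escherichia coli OP50, the usual laboratory food bacterium. The wild-type strain N2 gave 3 libraries and the mutant bcf-1(ylf1) gave 3, and the series design describes the replicates of each as independently grown and prepared. bcf-1 encodes an intestinal glycoprotein that binds bacteria, per the series title. The labels do not state what ylf1 changes in the gene, how many worms each library pooled or their age in days.

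In the vulva, the anchor cell of the gonad secretes the epidermal growth factor LIN-3. The receptor LET-23 on the vulval precursor cells passes the signal through the adaptor SEM-5 to the Ras protein LET-60, and from there along the kinases LIN-45 (Raf), MEK-2 (MEK) and MPK-1 (ERK) to the transcription factors LIN-1 and LIN-31. The cell that receives most LIN-3 then signals to its neighbours through the Notch receptor LIN-12, which steers them to another vulval fate. Outside the vulva the same kinases act in the germline, in ovulation and in other tissues, so a whole-worm value sums many cells.

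Of the 10 genes, 4 rose in the mutant: lin-12, lin-1, lin-31 and let-60. The 6 others did not pass the test, and none was lower by limma even at an unadjusted p under 0.05. The calls fell on the Notch receptor gene, the Ras gene and the transcription factor genes, while the kinase genes lin-45, mek-2 and mpk-1 and the adaptor gene sem-5 had changes of at most 0.24 log2 units in either direction. Levels are in FPKM (fragments scaled to transcript length and to the mapped fragments of the library), a unit inferred from the values. The test was limma on log2(FPKM + 1), two-sided, with p-values adjusted over all 13576 tested genes at a threshold of 0.05. The changes of the 10 genes ran from -0.23 to 1.00 with a median of 0.38 on that scale, beside a median of 0.24 over all tested genes. Of all tested genes 49.6% passed, 34.6% as higher and 15% as lower, so 4 higher of 10 is close to the background and is no result about the pathway as a whole. Leaving out N2 replicate 1 gave 5 higher, with lin-3 added, and leaving out mutant replicate 1 or mutant replicate 2 gave 2.

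Whole-table facts bear on what follows. bcf-1 itself (F57F4.4), the check of the labels, lay at 374, 412 and 499 FPKM in N2 and at 63.7, 72.1 and 60.01 FPKM in the mutant. The fall was not particular to it: gfi-1 (F57F4.3) lay at 377, 425 and 518 FPKM in N2 and at 72.5, 80.0 and 68.8 FPKM in the mutant. Whether these rows share reads was not tested. All libraries carried the adult label. The 10 adult markers were the yolk genes vit-1 to vit-6 and the collagen genes col-7, col-19, col-62 and col-119. They summed to 3620 to 6295 FPKM in N2 and to 28.0 to 70.3 FPKM in the mutant, and 12 of 14 moult markers rose. Whether the genotypes differed in stage was not tested. N2 replicate 1 stood apart from the other N2 libraries, at 28.9 on the second principal component (8.79% of the variance) against -14.9 and -13.4. The mutant libraries also spread on it, at 2.92, -16.9 and 13.5 for replicates 1, 2 and 3. N2 replicate 1 also held the highest sum of 18 germline markers, 1129 FPKM against 582 and 792 FPKM in N2 replicates 2 and 3, with 965 to 1038 FPKM in the mutant. Median-ratio scaling, which sets the median gene equal between libraries, moved the median change of all tested genes to 0.0017, and quantile normalisation moved it to 0.07. The direction of small changes therefore depends on the scaling.

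The ligand gene lin-3 (F36H1.4, chromosome IV, 11054308 to 11063768, WBcel235, plus strand) was at 11.7, 4.39 and 6.04 FPKM in N2 and at 9.62, 12.8 and 12.5 FPKM in the mutant. The N2 libraries spread widely, with a coefficient of variation of 51.8% against 15.2% in the mutant, and the genotypes overlapped through N2 replicate 1. The log2 change of 0.68 (SE 0.29, 95% interval 0.03 to 1.34) did not pass the test (adjusted p = 0.0789). Without N2 replicate 1, the library with the highest sum of germline markers, the change was 1.03 and passed (adjusted p = 0.00332). The part of germline content in this was not tested. A further limit is that the exons of lin-3 share 209 bases with those of ttr-16 on the opposite strand, a gene at 298 to 423 FPKM in N2 and 197 to 219 FPKM in the mutant, and no source used here says whether counting used the strand.

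The receptor gene let-23 (ZK1067.1, chromosome II, 9197512 to 9207213, plus strand) encodes the worm's epidermal growth factor receptor. It lay at 5.97, 6.43 and 5.41 FPKM in N2 and at 8.10, 7.16 and 8.39 FPKM in the mutant. Every mutant library was above every N2 library, as in 40.4% of all tested genes. The mean was 1.33-fold higher and the log2 change 0.36 (SE 0.14, 95% interval 0.03 to 0.68), which missed the threshold (adjusted p = 0.0653). It was 0.03 after quantile normalisation and 0.13 after median-ratio scaling.

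The adaptor gene sem-5 (C14F5.5, chromosome X, 7959453 to 7961723, minus strand) encodes a Grb2-like protein that links the receptor to the Ras exchange factor. Its values were 20.4, 19.1 and 17.3 FPKM in N2 and 16.99, 17.3 and 18.5 FPKM in the mutant, and the genotypes overlapped. The log2 change was -0.10 (SE 0.13, 95% interval -0.39 to 0.20, adjusted p = 0.566). After median-ratio scaling it was -0.34 and passed as lower (adjusted p = 0.0400).

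let-60 (ZK792.6, chromosome IV, 11688227 to 11691088, minus strand), the Ras gene, rose. It lay at 52.7, 50.9 and 53.2 FPKM in N2 and at 68.5, 76.2 and 65.2 FPKM in the mutant. The N2 libraries were nearly level, with a coefficient of variation of 2.32%, and no mutant library came near them. The mean rose from 52.3 ± 1.21 to 69.98 ± 5.63 FPKM (SD, n = 3 each), 1.34-fold, and the log2 change was 0.41 (SE 0.11, adjusted p = 0.0161). The call was lost in 4 of 13 alternatives, among them median-ratio scaling, where the change was 0.15 (adjusted p = 0.358), and without mutant replicate 1 or 2 (adjusted p = 0.0663 and 0.0578). It was kept after quantile normalisation, with a change of 0.46.

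The kinase genes below Ras varied little between the genotypes. lin-45, the Raf gene (Y73B6A.5, chromosome IV, 6742537 to 6748572, minus strand), was at 28.0, 20.3 and 22.7 FPKM in N2 and at 22.7, 25.7 and 22.97 FPKM in the mutant. All mutant values of lin-45 fell inside the range of N2. Its log2 change was 0.02 (SE 0.15, 95% interval -0.32 to 0.36, adjusted p = 0.926). mek-2, the MEK gene (Y54E10BL.6, chromosome I, 3005403 to 3013448, minus strand), was at 35.2, 31.3 and 29.9 FPKM in N2 and at 34.996, 30.5 and 33.9 FPKM in the mutant. These mutant values also stayed inside the N2 range, and the log2 change was 0.04 (SE 0.13, 95% interval -0.24 to 0.33, adjusted p = 0.790). The sign of both changes turned to lower after median-ratio scaling (-0.23 and -0.21) and after quantile normalisation (-0.12 and -0.03). mek-2 shares 410 exonic bases with Y54E10BL.3 on the other strand, a gene at 0.449 to 1.15 FPKM.

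mpk-1, the ERK gene (F43C1.2, chromosome III, 4216763 to 4228108, minus strand), was the only one of the 10 whose mutant libraries all lay below N2, as in 18% of all tested genes. Its values were 60.3, 50.7 and 49.9 FPKM in N2 and 42.6, 44.4 and 48.99 FPKM in the mutant. The gap between the nearest libraries, N2 replicate 3 and mutant replicate 3, was small. The mean was 1.18-fold lower, and the log2 change of -0.23 (SE 0.13, 95% interval -0.52 to 0.06) did not pass (adjusted p = 0.158). After median-ratio scaling the change was -0.49 and passed as lower (adjusted p = 0.00563), and after quantile normalisation it missed again. The annotation gives mpk-1 3 transcripts, which the table does not tell apart.

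**Figure D1:**
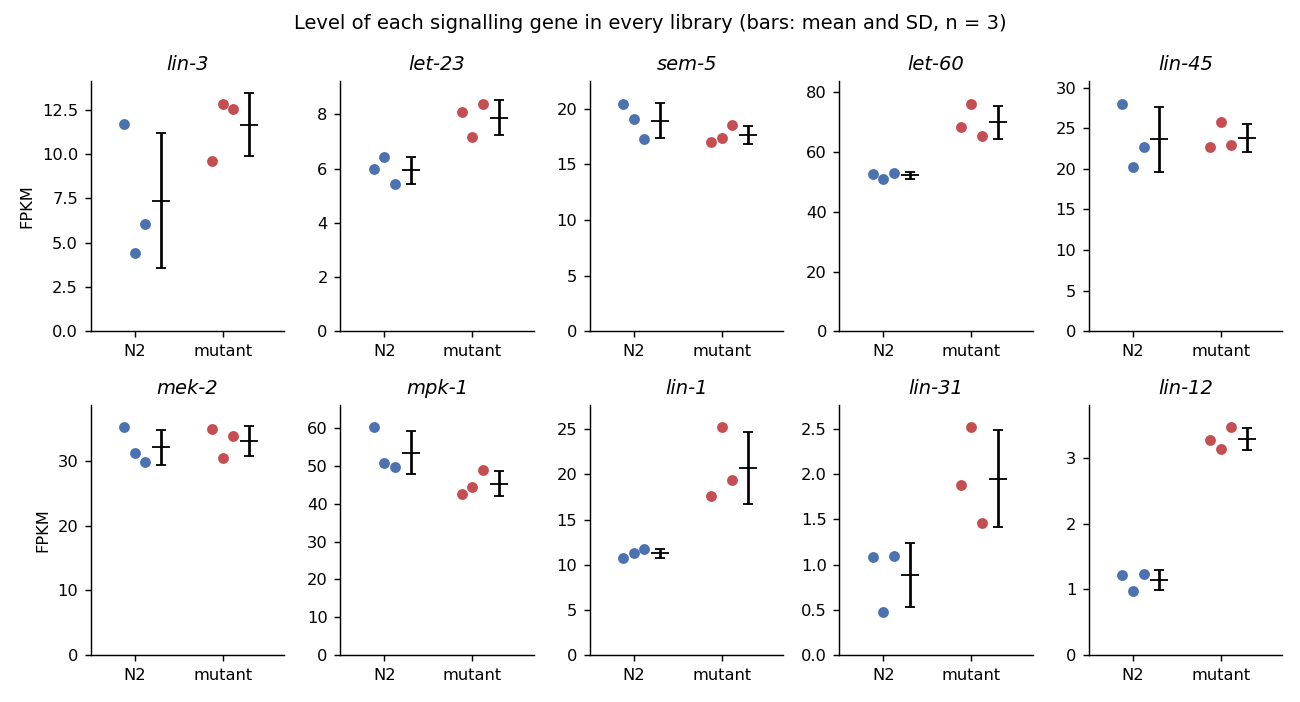
FPKM (y axis, from 0, a scale of its own for each gene) of the 10 signalling genes in each of the 6 libraries, by genotype, with replicates 1 to 3 from left to right and the mean and SD beside them. The mutant libraries of let-60, lin-1, lin-31, lin-12 and let-23 all sit above N2, those of mpk-1 all sit below, and lin-3 overlaps through the N2 library at 11.7 FPKM.

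The transcription factor genes at the end of the pathway rose. lin-1 (C37F5.1, chromosome IV, 2275861 to 2300286, minus strand) encodes an ETS-domain protein that holds back vulval fate until MPK-1 acts on it. It was at 10.8, 11.3 and 11.8 FPKM in N2 and at 17.6, 25.2 and 19.3 FPKM in the mutant. The N2 libraries were tight and the mutant libraries spread more, with mutant replicate 2 the highest, yet the genotypes stayed well apart. The mean rose from 11.3 ± 0.495 to 20.7 ± 3.99 FPKM, 1.84-fold, and the log2 change was 0.81 (SE 0.16, adjusted p = 0.00303). It passed under all 13 alternatives, between 0.56 after median-ratio scaling and 0.91.

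lin-31 (K10G6.1, chromosome II, 3982549 to 3987029, plus strand) encodes a winged-helix protein that MPK-1 also acts on. It was the lowest of the 10, at 1.08, 0.476 and 1.09 FPKM in N2 and at 1.88, 2.52 and 1.46 FPKM in the mutant. The groups were apart, by a narrow margin between N2 replicate 3 and mutant replicate 3. The mean rose from 0.882 ± 0.352 to 1.95 ± 0.535 FPKM, 2.21-fold, and the log2 change was 0.65 (SE 0.19, adjusted p = 0.0185), a scale on which a gene this low is understated. The call was lost in 5 of 13 alternatives, with changes of 0.51 after median-ratio scaling (adjusted p = 0.0560), 0.31 after quantile normalisation (adjusted p = 0.226), 0.49 without N2 replicate 2 (adjusted p = 0.0628), and 0.66 and 0.52 without mutant replicates 1 and 2 (adjusted p = 0.0523 and 0.0638).

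lin-12 (R107.8, chromosome III, 9060221 to 9071472, minus strand), the Notch receptor gene of the lateral signal, had the largest log2 change of the 10 on the deposited scale. It lay at 1.23, 0.971 and 1.24 FPKM in N2 and at 3.29, 3.14 and 3.47 FPKM in the mutant. Replicates agreed closely in each genotype, and the lowest mutant library was far above the highest N2 library. The mean rose from 1.15 ± 0.152 to 3.30 ± 0.168 FPKM, 2.88-fold, with a log2 change of 1.00 (SE 0.13, adjusted p = 0.000270). It passed under all 13 alternatives, with changes from 0.65 after quantile normalisation to 1.45 with a pseudocount of 0.1 and adjusted p-values of at most 0.00273. On the log2(FPKM + 1) scale 88.6% of all tested genes had a lower change, so larger changes on that scale were common. That scale understates a gene as low as lin-12, and the rank by fold was not computed.

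**Figure D2:**
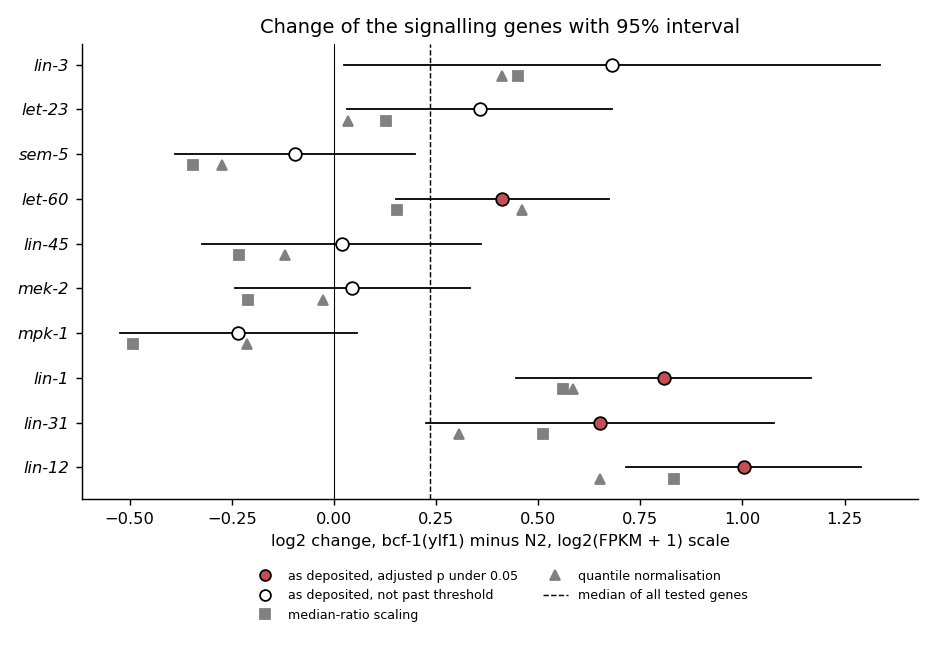
Log2 change of each signalling gene (x axis, bcf-1(ylf1) minus N2 on the log2(FPKM + 1) scale) with its 95% interval, filled where the adjusted p was under 0.05, with the changes after median-ratio scaling (squares) and quantile normalisation (triangles). The dashed line is the median of all tested genes, 0.24. lin-1 and lin-12 stay right of 0.5 under each scaling, whereas lin-45 and mek-2 cross 0.

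Under median-ratio scaling, lin-1 and lin-12 passed as higher and sem-5 and mpk-1 as lower, where 22.6% of all tested genes were higher and 22.8% lower. Under quantile normalisation let-60, lin-1 and lin-12 were higher and none lower, where the shares of all tested genes were 24.0% and 20.6%. lin-1 and lin-12 were thus called higher under each scaling. By library ranges, 5 of the 10 genes had every mutant library above N2 and mpk-1 every mutant library below, against 58.4% of all tested genes with the genotypes apart in either direction.

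Levels of the 10 genes per transcript length covered a wide range, and their order in FPKM differed little between the genotypes. In N2 mpk-1 (53.6 ± 5.77 FPKM) and let-60 (52.3 ± 1.21 FPKM) stood highest, with overlapping ranges. mek-2 (32.1 ± 2.78 FPKM), lin-45 (23.6 ± 3.97 FPKM) and sem-5 (18.9 ± 1.59 FPKM) followed, of which mek-2 stood apart from lin-45, while the ranges of lin-45 and sem-5 overlapped. lin-1, lin-3 and let-23 came next with overlapping neighbours, and lin-12 and lin-31 were lowest and overlapped. By mean level over the 6 libraries let-60 exceeded 87.4% of tested genes, let-23 exceeded 35.4%, lin-12 12.8% and lin-31 5.93%. In the mutant let-60 stood apart above mpk-1, lin-1 lay between lin-45 and sem-5 with overlapping ranges, and lin-12 stood apart above lin-31.

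Ratios between genes within a library do not depend on any factor that scales the whole library. 12 such ratios were computed: neighbours along the pathway, let-60 and lin-31 over mpk-1, and lin-12 over let-23 and over glp-1, the other Notch receptor gene. They were chosen after the values were seen. With 3 libraries against 3 an exact permutation test cannot give a two-sided p below 0.1, so none of these ratios can reach the threshold. Of all tested single genes 58.4% had the genotypes apart, and the share among gene pairs was not computed. let-60 over mpk-1 was 0.875, 1.003 and 1.07 in N2 and 1.61, 1.72 and 1.33 in the mutant, apart in all libraries (exact permutation p = 0.1, the smallest this design allows, and 0.133 adjusted over the 12 ratios). lin-1 over mpk-1, a factor over the kinase that acts on it, was 0.179, 0.222 and 0.236 in N2 and 0.412, 0.567 and 0.395 in the mutant, a 2.16-fold higher mean. lin-12 over let-23 was 0.205, 0.151 and 0.229 in N2 and 0.406, 0.438 and 0.414 in the mutant, 2.15-fold higher. The RNA of the Notch receptor was thus higher relative to that of the epidermal growth factor receptor in each mutant library than in any N2 library. In contrast, mek-2 over lin-45 was 1.26, 1.54 and 1.32 in N2 and 1.54, 1.19 and 1.48 in the mutant, with full overlap. let-23 over lin-3 and lin-31 over lin-1 overlapped too, and all other ratios were apart. Of these, mpk-1 over mek-2 was lower in the mutant, at 1.22 to 1.46 against 1.62 to 1.71.

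**Figure D3:**
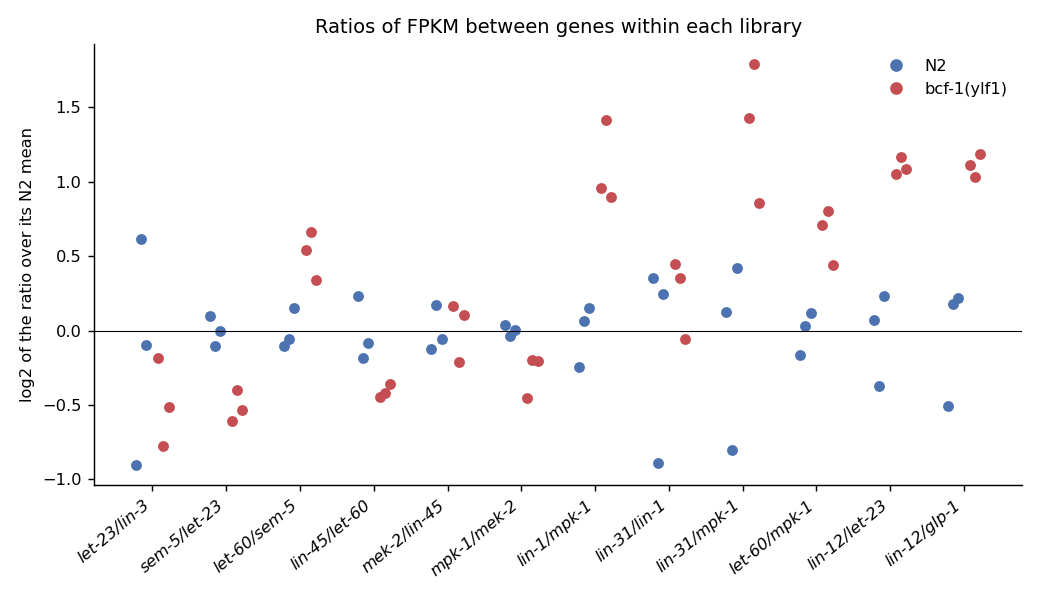
Ratio of FPKM between genes in each library, as log2 of the ratio over its N2 mean (y axis), for 12 gene pairs (x axis), with 3 points for each genotype. Ratios of lin-1 and lin-31 to mpk-1 and of lin-12 to let-23 and glp-1 lie above N2 in every mutant library. The genotypes overlap for mek-2 over lin-45, let-23 over lin-3 and lin-31 over lin-1.

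glp-1, which lies near lin-12 on chromosome III and encodes the Notch receptor best known for keeping germline stem cells dividing, did not pass the test. It was at 24.3, 11.97 and 14.9 FPKM in N2 and at 21.2, 21.4 and 21.3 FPKM in the mutant. N2 replicate 1, high in germline markers, was above every mutant library, and the log2 change was 0.36 (SE 0.23, adjusted p = 0.211; 0.64 and adjusted p = 0.00563 without N2 replicate 1). The ratio of lin-12 to glp-1 was 0.0716 ± 0.0184 in N2 and 0.155 ± 0.00833 in the mutant, 2.16-fold higher, with the genotypes apart (exact permutation p = 0.1, the smallest possible). lag-2, the ligand gene of both receptors, stayed below the filter of 1 FPKM in 3 libraries, at 0.247, 0.137 and 0.312 FPKM in N2 and 0.491, 0.663 and 0.518 FPKM in the mutant.

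The rest of the network was described from lists of 108 other genes, also chosen with earlier results of these data known. Of these genes 106 had a row and 93 were tested. 39 rose and 9 fell, with a median log2 change of 0.37 beside 0.24 over all genes. 2 of the rises, egl-17 and nhr-67, reached the filter level in the mutant libraries alone. After median-ratio scaling 14 rose and 15 fell, and after quantile normalisation 20 rose and 13 fell, so the excess of rises rests on the scaling. Each list's count is read against the 34.6% higher and 15% lower over all tested genes.

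Genes that hold Ras signalling back were mostly higher on the deposited scale only. There 9 of 10 tested (90%) passed as higher and none as lower, with changes from 0.29 to 1.15 and a median of 0.56. dep-1, a receptor phosphatase gene that opposes LET-23, rose from 6.80 ± 0.919 to 16.3 ± 1.62 FPKM, 2.40-fold (adjusted p = 0.000344). gap-1, a Ras GTPase-activating protein gene, rose from 3.38 ± 0.454 to 5.75 ± 0.411 FPKM, and ark-1, a kinase gene that restrains LET-23, from 8.04 ± 0.739 to 12.4 ± 0.0911 FPKM. dpy-23, an adaptor subunit of endocytosis, rose from 28.1 ± 2.11 to 42.7 ± 3.97 FPKM. lip-1, the phosphatase gene that switches MPK-1 off, rose 1.46-fold, from 14.7 ± 2.36 to 21.5 ± 0.825 FPKM (adjusted p = 0.0164), and lost its call under both scalings and without mutant replicate 1 or 3. The count was 1 of 10 after median-ratio scaling (dep-1) and 3 of 10 after quantile normalisation (dep-1, dpy-23 and unc-101). Of all tested genes 22.6% and 24% were higher under these scalings, so the excess of rises in this list rests on the scaling. The count was 4 without mutant replicate 1 and 5 without mutant replicate 3.

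Of 19 genes that promote Ras signalling, 8 rose (42.1%) and 2 fell (10.5%), near the shares over all tested genes, with a median of 0.37. lin-39, a Hox gene that makes cells competent for the signal, rose from 2.78 ± 0.536 to 9.69 ± 1.496 FPKM, 3.49-fold (adjusted p = 0.000167). eor-1, a transcription factor gene of the pathway, rose 1.597-fold, its partner eor-2 1.52-fold and the Ras scaffold gene soc-2 1.44-fold. The falls were of lin-10, which helps place LET-23 at the basolateral membrane, from 37.6 ± 4.25 to 17.95 ± 0.428 FPKM (adjusted p = 0.000281), and of the zinc transporter gene cdf-1, from 22.97 ± 3.45 to 11.8 ± 0.483 FPKM. lin-2 and lin-7, which work with LIN-10, had log2 changes of 0.44 and 0.37, of which lin-2 passed. The count of rises was 2 after median-ratio scaling (lin-39 and eor-1), 3 after quantile normalisation (with soc-2), and 5, 4, 3 and 5 without N2 replicates 2 and 3 and mutant replicates 1 and 3, while lin-10 and cdf-1 passed as lower throughout.

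Of 33 Notch pathway genes listed, 22 were tested. 3 rose and 3 fell (13.6% each), the falls at about the share over all tested genes (15%) and the rises below theirs (34.6%), with a median of 0.30. Genes of the secreted co-ligands went both ways. dos-2 rose from 3.60 ± 0.998 to 12.2 ± 3.07 FPKM, 3.40-fold (adjusted p = 0.000700). dos-1 fell from 4.53 ± 1.33 to 2.17 ± 0.0546 FPKM, osm-7 from 42.0 ± 8.01 to 24.6 ± 2.97 FPKM and osm-11 from 165 ± 20.9 to 121 ± 22.5 FPKM, the last called in 5 of 13 alternatives. sel-8, a coactivator of the nuclear Notch complex, rose 1.65-fold and the tetraspanin gene tsp-14 1.48-fold. All 5 gamma-secretase genes were tested and none passed, although sel-12 passed as lower under both scalings. 12 genes rose when N2 replicate 1 was left out. Under each scaling dos-2 alone rose, while falls numbered 5 with median-ratio scaling and 4 with quantiles equalised. Of the 10 ligand genes of the DSL family, apx-1 alone was high enough to test, and it did not pass (adjusted p = 0.132).

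The targets of the LIN-12 lateral signal include genes that switch the Ras pathway off in the neighbouring cells, and 3 of them, lip-1, ark-1 and dpy-23, are also on the list above. Of 7 tested, 4 rose (57.1%), those 3 and lst-1, and none fell, beside 34.6% higher and 15% lower over all tested genes. lst-1, also a germline gene, rose from 8.57 ± 2.02 to 14.8 ± 1.62 FPKM, 1.73-fold, and passed under all 13 alternatives. vav-1, also on this list, had a log2 change of -0.26 (adjusted p = 0.120). The direction in which the signal acts on each listed gene was not considered. vav-1 passed as lower under both scalings, while the rises were lst-1 alone with median-ratio scaling and lst-1 and dpy-23 with quantiles equalised. Of all tested genes 22.6% and 24% were higher under these scalings.

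Genes that mark or shape vulval cells had the highest median change of the 7 lists. Of 18 tested, 13 rose and 2 fell, with a median of 0.69. lin-11, a LIM homeobox gene of vulval cells, rose from 2.17 ± 0.444 to 9.30 ± 1.12 FPKM, 4.28-fold (adjusted p = 6.6e-05), and the nuclear receptor gene nhr-113 from 1.25 ± 0.216 to 5.03 ± 0.732 FPKM, 4.01-fold. egl-17, a fibroblast growth factor gene used as a reporter of vulval induction, lay at 0.239, 0.338 and 0.671 FPKM in N2 and at 2.38, 2.52 and 3.25 FPKM in the mutant, a 6.53-fold higher mean. nhr-67, a nuclear receptor gene of the anchor cell and vulva, lay at 0.0693, 0.107 and 0.112 FPKM in N2 and at 1.32, 1.55 and 1.05 FPKM in the mutant. These 2 genes passed the filter through the mutant libraries alone, so they had to differ and their calls carry no weight. Without them 11 of 16 rose and 2 fell, with a median of 0.61. The Wnt receptor genes lin-17 and lin-18, which orient vulval cells, fell 1.51-fold and 1.83-fold, lin-17 in 8 of 13 alternatives. Of those 16 genes 6 passed as higher under each scaling, and 7 without mutant replicate 1, while egl-38, a Pax gene, passed as lower with quantiles equalised. Of 8 sqv genes, which make glycosaminoglycans needed for the vulva to fold inwards, sqv-2 and sqv-7 rose 1.52-fold and 1.43-fold and none fell on the deposited scale. The median of the 8 turned from 0.12 to -0.11 under each scaling, where sqv-1 passed as lower, joined by sqv-4 with median-ratio scaling. Neither sqv-2 nor sqv-7 passed after median-ratio scaling, without N2 replicate 2 or 3, or without mutant replicate 1 or 3.

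Other branches that use these proteins moved in both directions, with 5 of 14 higher (35.7%) and 2 lower (14.3%), about the shares over all tested genes. Without egl-17 the counts were 4 of 13 and 2. egl-15, the fibroblast growth factor receptor gene whose signal also runs through SEM-5 and LET-60, rose from 4.51 ± 0.483 to 13.3 ± 1.21 FPKM, 2.95-fold (adjusted p = 0.000114), and its ligand gene let-756 rose 1.71-fold. ras-2, another gene of the Ras family, rose from 53.9 ± 5.93 to 88.7 ± 2.74 FPKM. In the branch through which LIN-3 controls ovulation in the spermatheca, the inositol phosphatase gene ipp-5 fell from 20.5 ± 0.371 to 10.7 ± 0.867 FPKM, 1.92-fold, and the inositol trisphosphate receptor gene itr-1 from 30.8 ± 4.07 to 18.9 ± 2.10 FPKM, 1.63-fold. Both were lower under all 13 alternatives. plc-3 and lfe-2, also on this list, did not pass, with log2 changes of 0.39 and 0.10 (limma adjusted p = 0.0581 and 0.537). Of the 13 genes without egl-17, 2 rose after median-ratio scaling, where rheb-1 also passed as lower, and 2 without mutant replicate 1.

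**Figure D4:**
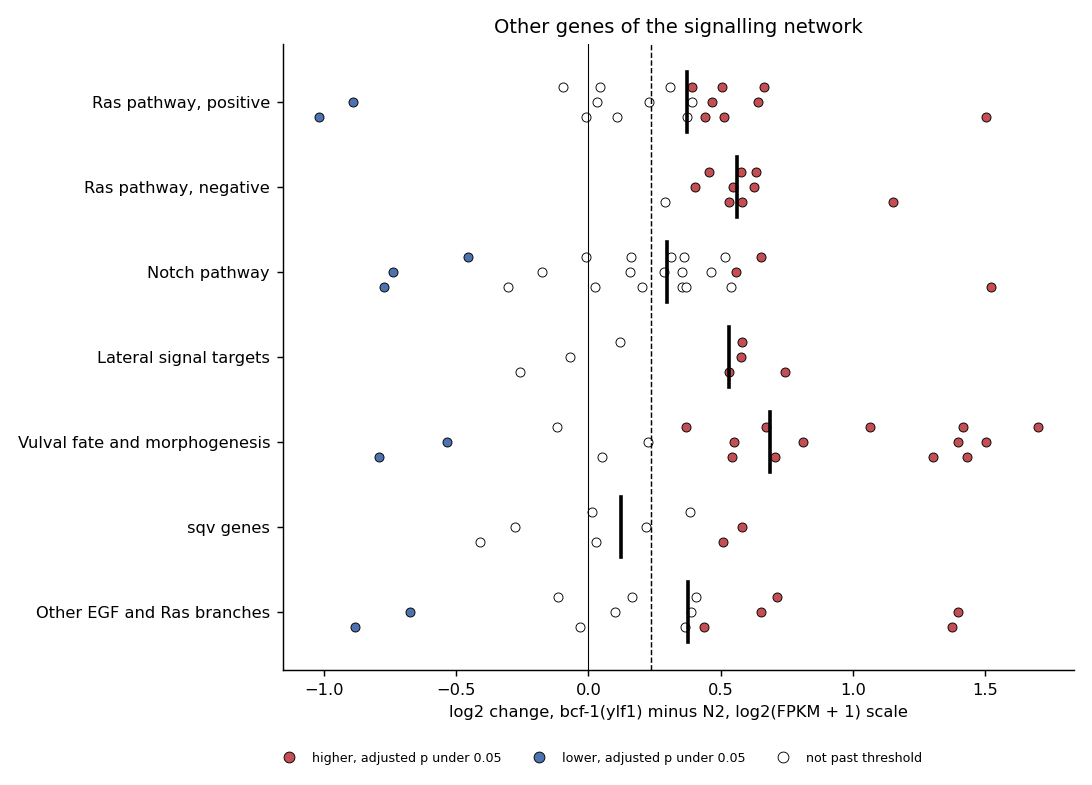
Log2 change (x axis, bcf-1(ylf1) minus N2 on the log2(FPKM + 1) scale) of each tested gene of 7 lists of the network (rows), coloured by call, with the list median as a bar and the median of all tested genes, 0.24, as a dashed line. In the list of genes that hold Ras signalling back 9 of 10 are higher, and the vulval list reaches furthest right; egl-17 and lin-39 and some others stand in more than 1 list.

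Markers of stage and of other tissues moved beside these genes. Moult markers summed to 312 to 535 FPKM in N2 and to 1580 to 1782 FPKM in the mutant, with 12 of 14 higher, and markers of hypodermis and seam cells, the epidermis of which the vulval precursors are part, to 249.97 to 334 and 725 to 823 FPKM, with 9 of 10 higher. Pharynx markers summed to 155 to 176 FPKM in N2 and 399 to 441 FPKM in the mutant. Without ceh-22, which reached the filter level in the mutant alone, 8 of 9 of them rose. Intestine markers fell in 6 of 9 tested and rose in 1. Their sum was not lower, at 6326 to 8489 FPKM in N2 and 8157 to 10106.5 FPKM in the mutant. Most of that sum came from asp-1, which rose from 5210 ± 867 to 7520 ± 852 FPKM. The other lists were nearer the 34.6% higher and 15% lower over all tested genes. Of 18 germline markers 6 rose (33.3%) and 1 fell, and of 10 neuron markers 2 rose (20.0%) and none fell. Of 10 body wall muscle markers 5 rose and none fell, and of 10 gonad sheath and spermatheca markers 5 rose and 1 fell. Under each scaling 11 moult markers and 6 hypodermis and seam markers passed as higher and 6 intestine markers as lower. With median-ratio scaling 4 germline markers rose and 3 fell, and with quantiles equalised 7 rose and 2 fell. No gene of these lists was at 0 in every library. The part of stage or tissue share in the changes of the 10 signalling genes was not tested. In whole animals, fewer cells of a type and less RNA per cell cannot be told apart.

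**Figure D5:**
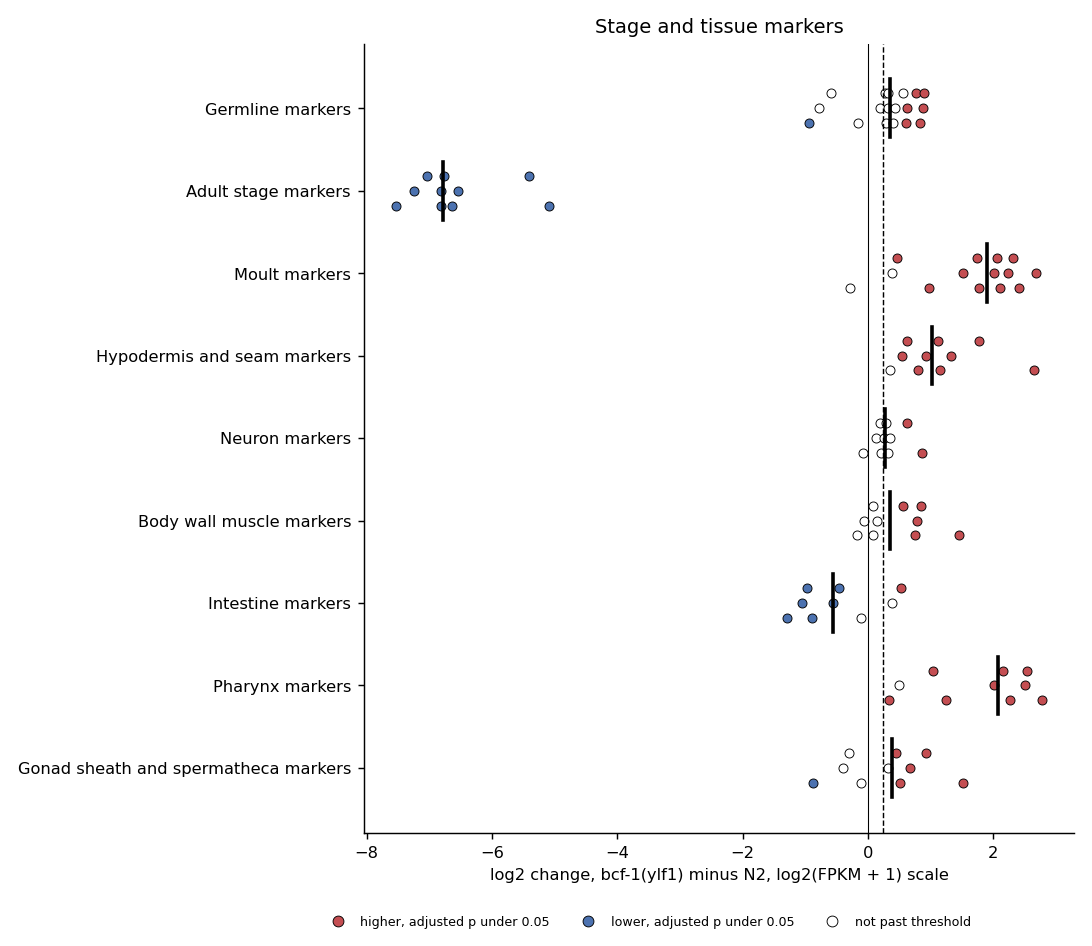
Log2 change (x axis, bcf-1(ylf1) minus N2 on the log2(FPKM + 1) scale) of each tested gene of 9 marker lists (rows), coloured by call, with the list median as a bar and the median of all tested genes as a dashed line. All 10 adult markers lie at or below -5.09, among them vit-4, which reached the filter level in N2 alone and so had to differ. The medians of the moult, hypodermis and pharynx lists (ceh-22 included) lie at 1.90, 1.02 and 2.08.

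The genes nearest in pattern to lin-12 and lin-1, the members with the largest changes on the log2(FPKM + 1) scale (lin-31 had a larger fold than lin-1), were found by the root mean square difference of log2 values over the 6 libraries, each gene centred on its own mean, among 13575 other tested genes. For lin-12 they were C10C6.3, the protease gene nas-11 and the zinc finger gene die-1, with differences of 0.03, 0.04 and 0.04 log2 units. The match holds for log2(FPKM + 1) values. By fold these genes rose less, 2.30, 2.03 and 2.10 against 2.88 for lin-12. nas-11 went from 18.4 ± 1.04 to 37.5 ± 0.469 FPKM and die-1 from 9.87 ± 0.389 to 20.7 ± 0.363 FPKM. For lin-1 they were Y52B11A.4, rgs-4 and T10B10.4, with differences of 0.04 to 0.05. Of all compared genes, 114 lay within 0.1 log2 units of lin-12 and 42 within 0.1 of lin-1 on the log2(FPKM + 1) scale. The nearest ones are thus examples from a crowd on that scale.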

How the data were processed

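Expression came as 1 table deposited by the authors, whose values per gene in each library were read as FPKM. Neither header nor labels name the unit. It was inferred because the values are not whole and the columns sum to 659249 to 687573, not to a fixed total. The build was WBcel235 and reads were handled with fastp, per the submitters' processing notes. No source used here names the aligner, the quantifier, the annotation release or the use of strand. Sequencing depth is unknown: among 104 to 175 genes per library that were above 0 in that library alone, 21.1% to 39.5% of values times exonic length fell within 10% of the commonest, so whole reads could not be read off and no counting interval is given. Symbols came from RefSeq locus tags, which matched 19959 of 20894 rows. Positions, strands, exonic overlaps and transcript numbers came from the Ensembl annotation of WBcel235, which is the build the files use.

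The 13576 genes that reached 1 FPKM in 3 or more libraries were tested with limma 3.58.1 in R 4.3.3 on log2(FPKM + 1), genotype as the only term and a mean-variance trend. P-values were two-sided and adjusted by Benjamini-Hochberg over all tested genes. A count-based test, planned for a table of counts, was not used. Folds are ratios of mean FPKM and means are given ± SD over 3 libraries. The fit was tested on simulated data in which far fewer genes changed than were called here, so that test cannot show how well these calls hold. The 10 genes and the lists were chosen with earlier results of these data known. In each list up to 4 called genes with the smallest p per direction were named, plus glp-1, lag-2, lip-1 and egl-17, and others to spell out a small count. The list entries mdt-23 and elt-5 were matched as sur-2 and egl-18, and ari-1 and lst-3 were left unmatched. The 13 alternatives were pseudocounts of 0.1 and 0.5, no filter, median-ratio scaling, quantile normalisation, no trend, a replicate block, and leaving out each library.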

Additional observations from a re-analysis of the deposited data

How the results depend on the processing

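bcf-1, lin-1 and lin-12 kept their direction and their call under all 13 alternatives. The number of the 10 genes called higher was 4, and it was 2 after median-ratio scaling and 2 to 5 when each library was left out in turn. The number called lower was 0, and it was 2 after median-ratio scaling and 0 in the other alternatives. At an unadjusted limma p under 0.05 the count lower was also 0. Of the other pathway genes 39 were higher, against 14 after median-ratio scaling, 20 after quantile normalisation and 19 to 54 when each library was left out. 9 were lower, against 15 after median-ratio scaling and 7 to 8 when each library was left out. Over all tested genes 4703 were higher and 2035 lower, against 3065 and 3096 after median-ratio scaling, and 2877 to 5720 and 1640 to 1870 when each library was left out.

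The sign of lin-45 turned from 0.02 to -0.23 after median-ratio scaling, -0.120 after quantile normalisation, and -0.0817, -0.0045 and -0.036 without N2 replicate 2, N2 replicate 3 and mutant replicate 2, with 0.143 at most when a library was left out. That of mek-2 turned from 0.04 to -0.21, -0.0271 and, without N2 replicate 3, -0.0047, with 0.111 at most when a library was left out. None of these passed the threshold, and the cause was not tested. let-23 passed only without the trend (adjusted p = 0.0476).

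Libraries with the same replicate number did not deviate together (correlations of 0.01, -0.07 and -0.28 for numbers 1, 2 and 3). Unlike numbers gave correlations from -0.20 to 0.34. These values showed no sign of pairing by number, but so few libraries cannot exclude it. With the replicate block 3 of the 10 genes were higher and none lower, 32 of the other pathway genes were higher and 8 lower, and 4309 of all genes were higher and 1863 lower. let-60 then had an adjusted p of 0.0603 and was not called. Unknown depth limits lin-31 and lin-12 most, since their levels were close to the filter.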
